A study of Mus musculus with 6 samples.

Results

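The genes described here are the Argonautes and the machinery that makes and uses microRNAs, in mouse primary hippocampal cells in which Diras2, a small GTPase related to Ras, was knocked down. They were taken by name from a list of 10 genes, and a gene counted as measured where the array annotation gives at least 1 probe set with that symbol and no other. By this rule 8 of the 10 were measured, of 22180 genes on the array: Ago1, Ago2, Ago3, Ago4, Dicer1, Drosha, Tnrc6a and Tnrc6c. The probe sets of Dgcr8 and Tnrc6b also carry the name of a microRNA gene, Mir1306 and Mir5113, so no value is given for either. Probe sets were to be chosen by their mean level over the 6 arrays, but each of the 8 genes has a single one, so this value decided nothing. The group itself was selected on knowledge of earlier results of this comparison, and its values are therefore a description that supports no statement about the pathway as a whole.

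MicroRNAs are short RNAs that lower the output of messenger RNAs with matching sites. Drosha and its partner Dgcr8 cut the hairpin out of the primary transcript in the nucleus, Dicer1 trims it to a short duplex in the cytoplasm, and an Argonaute protein keeps a single strand of it as a guide. Argonautes then recruit the Tnrc6 scaffold proteins, which bring in enzymes that shorten and destroy the target, and in neurons this machinery tunes local protein synthesis and dendrite growth. Ago2 is the Argonaute of mammals best known for slicing a fully matched target, the step on which RNA interference relies.

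The cells came from hippocampi of mouse embryos at day 18 and were grown as a primary culture. They were infected 7 days after seeding with an adeno-associated virus, AAV1/2, and total RNA was isolated after 7 more days. The vector of 3 samples held the Diras2 knockdown construct and that of 3 others a scrambled control, so infection and vector are shared by both groups, and effects of the construct itself cannot be told apart from those of losing Diras2. The strain, the sequence of the construct and the promoter that drives it are not given in the sources used here. Each sample was read on 1 array, and values are log2 RMA expression levels per probe set. The labels name biological replicates without naming separate litters or cultures, so the p-values reflect the spread among these 6 samples only, and some of it may be technical.

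Diras2 was lower in each knockdown array, at 7.17, 6.23 and 6.08 against 10.17, 10.17 and 9.76 in the controls, an 11.6-fold difference (adjusted p 0.00063 by limma). An exact two-sided permutation test gave p = 0.1, the lowest value that this number of arrays can give. RNA integrity ran from 8.8 to 9.3. The culture carried neuronal markers at high level, with Map2 at 11.25 ± 0.04 (SD, n = 3) in the controls. Of the 6 astrocyte markers 5 had a mean level of at least 5 over the 6 arrays. Among the astrocyte markers Gfap lay at 8.46 ± 0.44 in the controls and S100b at 3.48 ± 0.35. The 4 endothelial markers, such as Cldn5 at 3.35 ± 0.10 in the controls, lay below the median level of 5.06 over all genes. Of the 6 microglial markers P2ry12 (3.69 ± 0.32) and 3 others lay below it, and Csf1r (5.68 ± 0.17) and Cx3cr1 (5.51 ± 0.20) above. Of 48 markers measured for 8 cell types 1 rose and 3 fell by limma, where 4.17% of all genes rose and 3.64% fell. Pdgfra of oligodendrocyte precursors rose by 2.80 on the log2 scale (adjusted p 0.0104 by limma). Snap25 of neurons, Lhx6 of inhibitory neurons and Rgs5 of pericytes fell by 0.51, 1.20 and 1.40 (adjusted p 0.0471, 0.0063 and 0.00258). As lists, the 9 general and excitatory neuron markers had a median difference of -0.02 with 4 above 0, and the 5 inhibitory ones -0.45 with 1 above 0. Without Snap25 the other 8 of the first list had a median of 0.075, with 4 above 0 and 4 below. Without Lhx6 the other 4 inhibitory markers still had a median of -0.33, with 1 above 0 and 3 below. Their mean level ran from 7.705 to 8.230 in the knockdown arrays and from 7.868 to 8.482 in the controls. The mean level of the 7 oligodendrocyte lineage markers ran from 5.79 to 6.59 in the knockdown arrays and from 5.58 to 5.96 in the controls, but this shift was that of Pdgfra. Without it the other 6 ran from 5.77 to 6.35 against 5.79 to 6.19, with 3 above 0 and 3 below. The 6 fibroblast and mural markers ran from 6.05 to 6.14 against 6.14 to 6.50, and without Rgs5 from 5.92 to 6.10 against 5.72 to 6.19. The part of these markers in the differences of the microRNA machinery was not tested. In a bulk sample fewer cells of a type and less RNA per cell cannot be told apart.

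Ago2, the slicing Argonaute, had the largest difference of the 8 genes. Its level was 9.99, 10.02 and 10.28 in the 3 knockdown arrays and 8.04, 8.28 and 8.36 in the 3 controls. The groups are far apart, with the lowest knockdown array well above the highest control. The mean rose from 8.23 ± 0.17 to 10.10 ± 0.16 (SD, n = 3). This is a 3.66-fold rise, or 1.87 on the log2 scale (SE 0.13, 95% interval 1.58 to 2.16, adjusted p 0.000538 by limma). Among all genes tested this was the 16th largest increase and the 17th smallest p-value, where Diras2 itself had the 36th smallest. Under 16 other settings of the analysis the difference stayed between 1.78 and 1.94 and the adjusted p between 0.000147 and 0.00663.

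Ago3, which binds microRNAs as the other Argonautes do, also rose. Its level was 6.75, 6.54 and 6.89 in the knockdown arrays and 6.01, 5.70 and 5.97 in the controls, again without overlap. The log2 difference was 0.83 (SE 0.13, 95% interval 0.53 to 1.14, adjusted p 0.00847 by limma), which is 1.78-fold. Of the 924 genes that rose, 314 rose by at least this much. The call held under all 16 other settings, with adjusted p-values from 0.00335 to 0.0416 and the highest without control replicate 2.

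The remaining Argonautes did not pass the test. Ago1 lay at 7.71, 7.51 and 7.59 in the knockdown arrays and at 7.64, 7.29 and 7.03 in the controls. Control replicate 1 lies inside the knockdown range, and the spread of the controls, 0.31 (SD, n = 3), is larger than the difference of 0.28 (95% interval -0.08 to 0.65, adjusted p 0.37 by limma). Ago4 was dim, at 3.60, 3.94 and 4.58 against 3.59, 3.43 and 3.72, below the median level of all genes in all 6 arrays. Its difference of 0.46 (95% interval -0.06 to 0.98, adjusted p 0.305) comes mostly from knockdown replicate 3, and was 0.19 without that array. RMA pulls weak signals towards a floor, so a change of Ago4 could be understated. The interval of Ago4 thus takes in a difference as large as that of Ago3, the interval of Ago1 does not, and both lie wholly below that of Ago2.

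**Figure D1:**
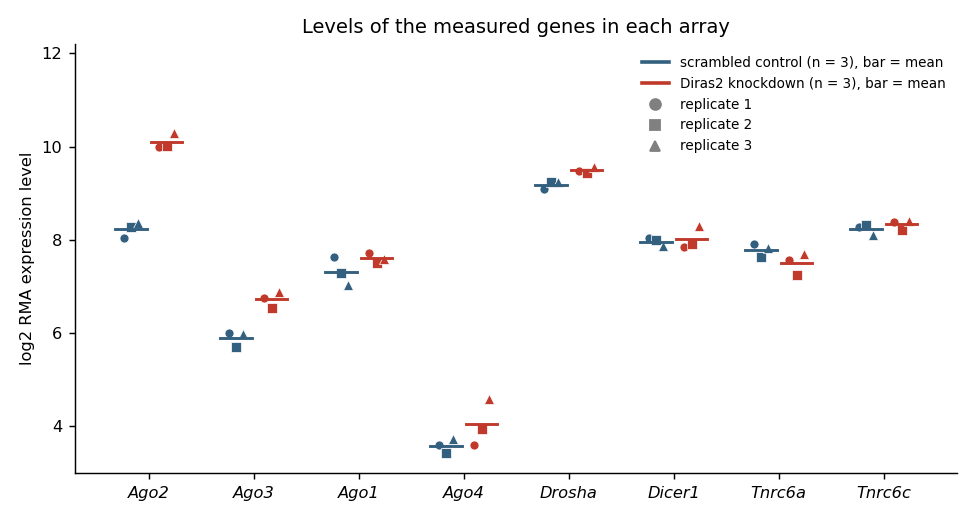
Log2 RMA expression level (vertical axis) of the 8 measured genes in each of the 6 arrays, with points for arrays, symbols for replicate numbers and bars for group means (n = 3). The knockdown points of Ago2 (9.99 to 10.28), Ago3 (6.54 to 6.89) and Drosha (9.43 to 9.57) lie wholly above the control points. Those of Ago1, Ago4, Dicer1, Tnrc6a and Tnrc6c overlap them.

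Whether the Argonautes moved by unequal amounts was examined as the log2 ratio of 2 probe sets within each array, for the 6 pairs. The log2 ratio of Ago2 to Ago1 was 2.28, 2.51 and 2.69 in the knockdown arrays and 0.40, 0.99 and 1.33 in the controls. It thus shifted by 1.59, and the ratio of Ago2 to Ago4 by 1.41 and that of Ago2 to Ago3 by 1.04, each without overlap of the groups. The ratio of Ago3 to Ago1 shifted by 0.55, also without overlap, while Ago3 to Ago4 shifted by 0.37 and Ago1 to Ago4 by -0.18 with overlapping groups. Each of the 4 pairs without overlap had an exact two-sided permutation p of 0.1, the smallest that the design allows, and 0.15 after adjustment over the 6 pairs, so none can pass a threshold of 0.05. These pairs were compared with the changes of their members already known. All of the 4 but Ago3 to Ago1 contain Ago2, so they are not separate observations. For single genes, the groups of 25.5% of all genes do not overlap in either direction. Ratios to Ago4 rest on a dim probe set, at 3.43 to 4.58, whose change could be understated.

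Ago3, Ago1 and Ago4 lie next to each other in that order in the RefSeq annotation and are read from the same strand, while Ago2 lies on another chromosome. The 250 bases before the start of each are shown because 1 of these neighbours passed the test, although a difference in response between the 3 was not established. They are RefSeq sequences of build GRCm38.p6 from the minus strand, written 5′ to 3′, with capitals marking each GC box, the letters GGGCGG or their reverse complement CCGCCC, a motif known to be bound by Sp1-type factors.
Ago3, chr4:126429543-126429792: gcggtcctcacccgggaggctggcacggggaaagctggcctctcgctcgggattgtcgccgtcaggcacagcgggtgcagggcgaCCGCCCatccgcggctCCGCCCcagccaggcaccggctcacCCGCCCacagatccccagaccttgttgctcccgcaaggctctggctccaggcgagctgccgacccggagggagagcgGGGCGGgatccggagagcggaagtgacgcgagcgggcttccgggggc
Ago1, chr4:126468632-126468881: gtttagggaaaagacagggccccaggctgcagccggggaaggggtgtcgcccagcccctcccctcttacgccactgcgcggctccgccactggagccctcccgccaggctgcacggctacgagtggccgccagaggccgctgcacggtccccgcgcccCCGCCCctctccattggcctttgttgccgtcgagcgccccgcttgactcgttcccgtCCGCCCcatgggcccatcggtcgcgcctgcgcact
Ago4, chr4:126533459-126533708: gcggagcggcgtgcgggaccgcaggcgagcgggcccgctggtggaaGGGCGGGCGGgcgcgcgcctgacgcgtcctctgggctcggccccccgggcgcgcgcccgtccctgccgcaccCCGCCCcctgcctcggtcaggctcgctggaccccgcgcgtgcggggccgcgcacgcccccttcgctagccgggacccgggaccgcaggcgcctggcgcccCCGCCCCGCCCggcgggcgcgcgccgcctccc
The upstream start was used for Ago1, for which 2 are listed. All 3 windows are rich in G and C, with 73.6% in Ago3, 72.4% in Ago1 and 85.6% in Ago4 against a median of 52.4% over 32851 listed promoters. GC boxes numbered 4 in Ago3, 2 in Ago1 and 5 in Ago4, overlapping ones counted separately, and 32.7% of all listed windows hold at least 1. A CCAAT box, searched as CCAAT on both strands and present in 33.8% of windows, was found once, in Ago1. The TATA box TATAAA, present in 12.4%, was in none of the 3 windows. The gene that rose and its neighbours thus share this base composition, and a match is a description of the letters only.

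Drosha, the nuclease that starts microRNA maturation, had slightly higher values in the knockdown, at 9.48, 9.43 and 9.57 against 9.08, 9.23 and 9.24. The groups do not overlap, yet the difference of 0.31 (SE 0.10, 95% interval 0.08 to 0.54) did not pass (1.24-fold, adjusted p 0.111 by limma). It remained above 0.05 under each of the 16 other settings, from 0.054 among genes with a mean level of at least 5 to 0.279 without knockdown replicate 3. Dicer1, the cytoplasmic nuclease, lay at 7.84, 7.91 and 8.30 against 8.03, 8.0 and 7.86. Its groups overlap throughout, and the 95% interval of the difference, -0.26 to 0.37 (adjusted p 0.883), leaves out changes of the size seen in Ago3.

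The measured Tnrc6 scaffolds did not pass either. Tnrc6a lay at 7.57, 7.24 and 7.70 in the knockdown and 7.91, 7.63 and 7.82 in the control, a difference of -0.28 (95% interval -0.61 to 0.04, adjusted p 0.312 by limma). It was the only one of the 8 genes with a difference below 0 in this fit. Tnrc6c lay at 8.38, 8.21 and 8.40 against 8.28, 8.32 and 8.10, a difference of 0.10 (95% interval -0.15 to 0.35, adjusted p 0.701).

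**Figure D2:**
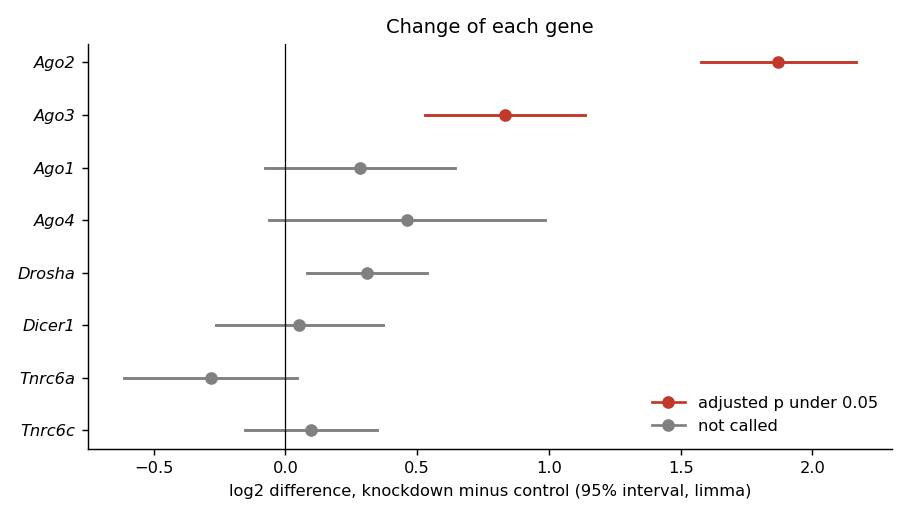
Log2 difference, knockdown minus control (horizontal axis), of the 8 measured genes with 95% intervals from limma, in red where the adjusted p is under 0.05. The intervals of Ago2 (1.58 to 2.16) and Ago3 (0.53 to 1.14) lie apart from each other and above 0, and the interval of Drosha (0.08 to 0.54) lies above 0 without passing the adjusted threshold.

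In all, limma called 2 of the 8 genes higher and 0 lower and left 6 uncalled, where 4.17% of all genes rose and 3.64% fell. At an unadjusted p under 0.05, 3 were higher, Drosha with Ago2 and Ago3, and 0 lower, where 10.9% of all genes were higher and 10% lower by that rule, 20.9% in all. The groups did not overlap for 3 of the 8, all higher in the knockdown, and for 13.4% of all genes in that direction, 12.1% in the other and 25.5% in either. The median difference of the 8 was 0.30 on the log2 scale, against 0.00 for all genes, with a median within-group SD of 0.18 against 0.15. No share or median of the 8 is read as support, because they were chosen with these differences known.

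**Figure D3:**
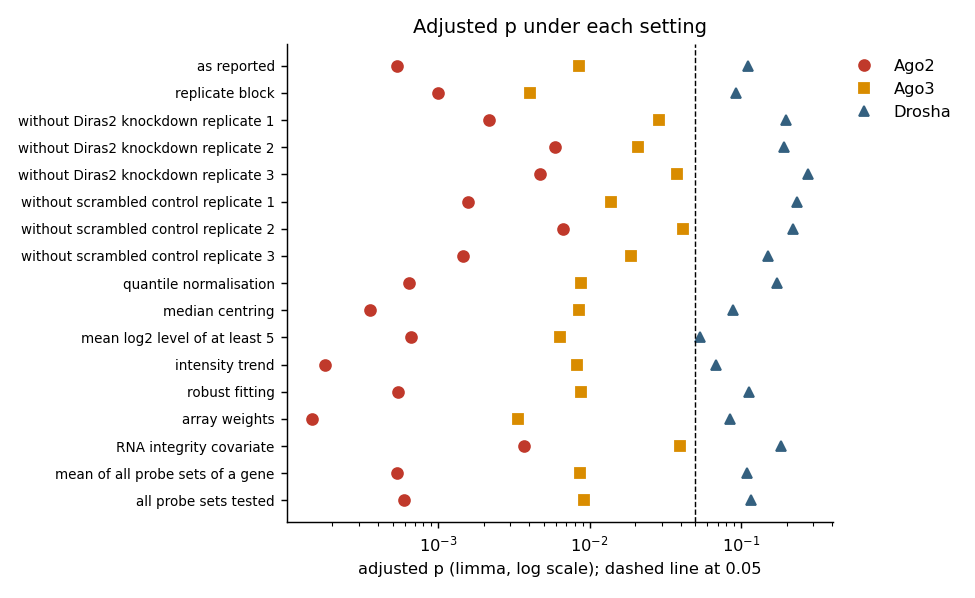
Adjusted p from limma (horizontal axis, log scale) of Ago2, Ago3 and Drosha as reported and under 16 other settings of the analysis, with a dashed line at 0.05. Ago2 stays at or below 0.00663 and Ago3 at or below 0.0416, and Drosha stays at or above 0.054.

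Further genes of the pathway were taken from 8 lists with 84 genes, of which 69 were measured. Of these 5 rose, 0 fell and 64 did not pass by limma, which makes 7.25% higher where 4.17% of all genes were. Their median difference was 0.07 against 0.00 for all genes. Most of the listed genes had a mean level of at least 5, which 11238 of the 22180 genes reach. These shares therefore do not compare genes of like level. The lists were chosen with earlier results of these data known, and no share or median of them is read as support. At an unadjusted p under 0.05, 16 were higher and 6 lower, against 10.9% and 10% of all genes, shares that also stand behind the unadjusted counts of the single lists. The count of 5 was 8 with the replicate block, 3 without knockdown replicate 1, 2 without knockdown replicate 3, 1 without knockdown replicate 2 or control replicate 2, 1 with RNA integrity as a covariate and 10 among genes with a mean level of at least 5. Over all genes the number higher also moved with the setting, from 924 in the fit as reported. It was 1341 with the block and 402 with the RNA integrity covariate. The fits lacking an array named above gave 383 to 632, and the level filter 1173 of 11238 genes. The 5 pathway genes called in the fit as reported were Tsn, Ppp6c, Ipo8, Ajuba and Itgb1. The first 4 belong to 1 list, the proteins that load, carry or modify Argonautes.

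Of the 18 measured genes of that list 4 rose, 0 fell and 14 did not pass by limma, where 4.17% of all genes rose and 3.64% fell. At an unadjusted p under 0.05, 7 were higher and 0 lower, against 10.9% and 10% of all genes. The median difference was 0.16, against 0.00 for all genes, and 16 lay above 0. This list too was chosen with earlier results of these data known, so its counts are a description only. Tsn, translin, forms with Tsnax the C3PO nuclease that removes the discarded strand from a loaded Argonaute. It read 10.16, 10.15 and 10.01 in the knockdown and 9.50, 9.46 and 9.25 in the control, a rise of 0.70 (adjusted p 0.00756 by limma) that was called under all 11 alternatives run for it. Its partner Tsnax, named after its values were seen, had tight groups that did not overlap, 8.76 to 8.79 against 8.39 to 8.47, and an adjusted p of 0.0574 for a difference of 0.34. Ppp6c is the catalytic subunit of a phosphatase that, held by Ankrd52, takes phosphates off Ago2. Ppp6c read 9.68, 9.84 and 9.59 against 9.17, 9.10 and 9.06, a rise of 0.59 (adjusted p 0.0129), and Ankrd52, named after its values were seen, 9.40, 9.41 and 9.43 against 9.01, 9.14 and 8.75, a difference of 0.45 (adjusted p 0.0619). Both pairs thus had 1 partner that passed and 1 that did not, without overlap of the groups in any of the 4 genes. The groups of 13.4% of all genes do not overlap in that direction. The 4 genes were named for their calls or after their values were seen, so this is a description only.

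Ipo8, an importin that binds Argonautes, rose by 0.49 (adjusted p 0.0262 by limma), from 7.87 ± 0.11 to 8.36 ± 0.07 (SD, n = 3). Ajuba, a LIM-domain protein that binds Argonautes, rose by 0.63 (adjusted p 0.0298) from a low level, 4.80 ± 0.17. The calls of Ppp6c, Ipo8 and Ajuba did not all hold with 1 array left out. Among all genes 383 to 800 rose in those fits, against 924 with all arrays. The differences of the 3 genes there ran from 0.525 to 0.65, 0.437 to 0.542 and 0.518 to 0.693. The call of Ppp6c was lost without knockdown replicate 2 (0.0581), without control replicate 2 (0.0635) and when RNA integrity was a covariate (0.0688). Leaving out any array but control replicate 1 ended that of Ipo8 (0.0536 to 0.113), and any but knockdown replicate 1 that of Ajuba (0.056 to 0.0982), as did RNA integrity as a covariate (0.12 and 0.0869).

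**Figure D4:**
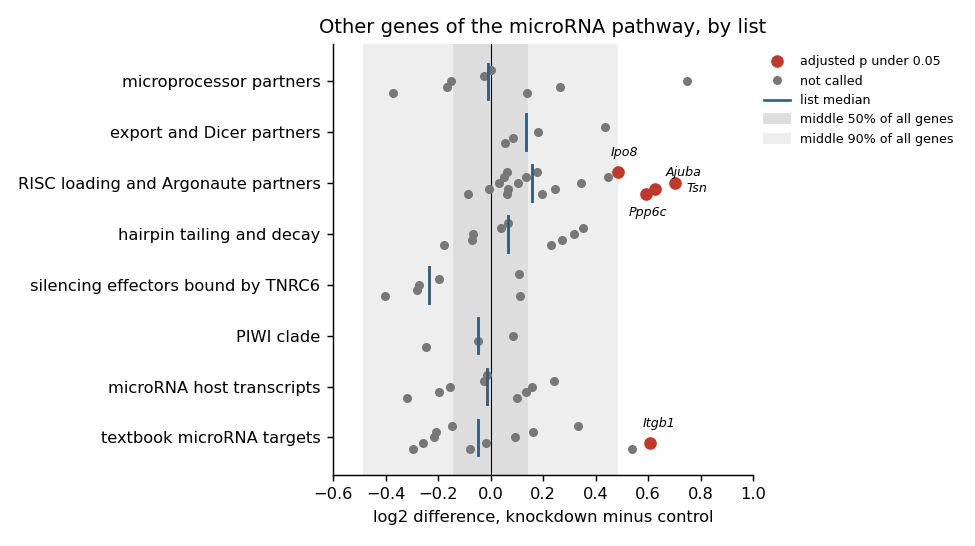
Log2 difference, knockdown minus control (horizontal axis), of the 69 measured genes of 8 pathway lists, with each list's median as a blue line and the middle 50% and 90% of all genes as grey bands (90% from -0.48 to 0.48). The 5 genes with an adjusted p under 0.05, in red, lie to the right of the bands, 4 of them in the list of RISC loading and Argonaute partners.

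The steps before and after the Argonautes held no gene that passed in the fit as reported, but some passed under other settings. Among genes with a mean level of at least 5 these included Ddx17, Ran, Dis3l2 and Pan3 (adjusted p 0.0243, 0.0344, 0.0344 and 0.0394 by limma). Among 8 measured partners of the Drosha complex 0 rose and 0 fell by limma (1 and 1 at an unadjusted p under 0.05), with a median of -0.01. The paired RNA helicases of this complex pointed in opposite directions, Ddx5 at 0.75 (adjusted p 0.0765 by limma, and 0.013 with the replicate block) and Ddx17 at -0.37 (adjusted p 0.0524). Of the 4 genes for export and Dicer binding 0 passed by limma (1 higher at an unadjusted p under 0.05), and all lay above 0 with a median of 0.13. Ran, the GTPase that drives export, had 0.44 (adjusted p 0.0609, and 0.028 with the replicate block), and Prkra, a double-stranded RNA-binding partner of Dicer1, 0.18 (adjusted p 0.471). Of the 9 genes that tail or degrade hairpins and microRNAs 0 passed by limma (3 higher and 0 lower at an unadjusted p under 0.05), with a median of 0.07. Dis3l2, a 3′ exonuclease, had 0.32 (adjusted p 0.0802) and Tent2, a poly(A) polymerase, 0.35 (adjusted p 0.138).

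The 6 measured silencing effectors that Tnrc6 proteins recruit had the lowest median of the 8 lists, -0.235, and 2 of the 6 lay above 0. By limma 0 passed (0 higher and 3 lower at an unadjusted p under 0.05). Pan3, of the Pan2-Pan3 deadenylase, read 7.98, 7.81 and 7.69 in the knockdown and 8.32, 8.24 and 8.13 in the control, a difference of -0.40 (adjusted p 0.0725 by limma, and 0.0382 with the replicate block). Cnot9, the subunit of the Ccr4-Not deadenylase that docks Tnrc6, read 9.08, 9.07 and 8.96 against 9.31, 9.33 and 9.31, a difference of -0.28 (adjusted p 0.12). Neither gene had overlapping groups, where 12.1% of all genes had none in that direction, and both were named for their small p-values. The Piwi relatives of the Argonautes, which act in the germ line, were dim, with group means between 3.16 and 4.02, and 0 of the 3 passed by limma, also at an unadjusted p under 0.05. Piwil4 and Piwil1 had differences of -0.25 (adjusted p 0.4) and 0.09 (adjusted p 0.824).

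The genes tested also include 478 microRNA genes, each read from its brightest probe set that names no other gene. These probe sets do not measure the mature microRNA, and most were dim, with a median level of 3.00 and 61 of them at 5 or more. Of the 478, 1 rose and 4 fell, together 1.05% where 7.8% of all genes were called. The mature sequences of these 5, from RefSeq build GRCm38.p6, are given with those of the microRNAs whose names share the Dgcr8 and Tnrc6b probe sets, with position and strand, and with the seed (bases 2 to 8), which pairs with targets, in capitals.
mmu-miR-5125, chr17:23823339-23823358 (plus strand): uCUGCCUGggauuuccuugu
mmu-miR-670-5p, chr2:94261358-94261379 (minus strand): aUCCCUGAguguauguggugaa
mmu-miR-670-3p, chr2:94261316-94261340 (minus strand): uUUCCUCAuauccauucaggagugu
mmu-miR-3070-5p, chr12:109588608-109588630 (plus strand): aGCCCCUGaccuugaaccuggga
mmu-miR-3070-2-3p, chr12:109588648-109588669 (plus strand): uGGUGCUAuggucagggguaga
mmu-miR-804, chr11:50357799-50357820 (minus strand): uGUGAGUUguuccucaccugga
mmu-miR-1963, chr7:29083671-29083693 (minus strand): uGGGACGAgaucaugaggccuuc
mmu-miR-1306-5p, chr16:18284288-18284310 (minus strand): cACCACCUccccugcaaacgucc
mmu-miR-1306-3p, chr16:18284248-18284268 (minus strand): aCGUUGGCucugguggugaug
mmu-miR-5113, chr15:80940049-80940071 (plus strand): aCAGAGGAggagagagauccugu
No seed was shared between these sequences. Mir5125 fell from 5.90 ± 0.20 to 5.07 ± 0.10 (SD, n = 3), a difference of -0.84 (adjusted p 0.00661 by limma), and kept its call under all 11 alternatives run for it. Mir670 fell by 0.85 from a control level of 4.86, Mir1963 by 0.54 from 6.50 and Mir804 by 0.46 from 3.00. Mir3070b rose by 0.57 from 3.63. The adjusted p-values of these genes ran from 0.0249 to 0.0447 by limma. Of the 5 called microRNA genes, 2 had a mean level of 5 or more. The call of Mir670 was lost in 6 of 10 alternatives, that of Mir3070b in 6 of 10, that of Mir804 in 7 of 10 and that of Mir1963 in 7 of 11.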

How the data were processed

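RNA of 6 samples (Diras2 knockdown and scrambled control, 3 each) was amplified by a whole-transcript method and hybridised to Affymetrix arrays, per the labels' protocols. Per the submitters' processing notes, the authors used RMA and Affymetrix Expression Console 1.2.1.20, and the deposited table holds a log2 level for each probe set. RMA subtracts background, forces a common distribution on the arrays and combines probes, which hides a shift of most genes and shrinks changes of dim ones. Array medians were 4.03 to 4.11. Precision is limited by the number of arrays, and detection calls and probe intensities were not used here.

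A platform annotation gave 1 symbol for 23521 of 41345 probe sets, several for 1814 and none for 16010. This left 22180 genes, each with its brightest probe set, and 21994 matched a RefSeq gene by Entrez number. Differences are knockdown minus control from limma 3.58.1 (R 4.3.3), with Benjamini-Hochberg adjustment over all 22180 genes and a threshold of 0.05. In simulated data over 22180 genes, changes of 0.5, 1 and 2 on the log2 scale were given to 67, 67 and 66 genes. It called 17.9%, 73.1% and 98.5% of them. In the measured data 1731 genes were called, and the adjustment depends on how many genes change. The simulated shares therefore do not give the share of changes found here. Exact permutation tests used scipy 1.17.1, and figures matplotlib 3.10.9.

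The members and lists were chosen with earlier results of these data known. The text names all measured members, Diras2, the called genes of each pathway list (5 at most, or the 2 with the smallest p), the called microRNA genes and the 4 genes most correlated with the 2 members of smallest p. Sequences are from RefSeq tables. Same-numbered samples deviated together from their group means across genes (r = 0.427, 0.121 and 0.374, against -0.378 to 0.057 for other pairs), each above 0.1, the value taken to mark pairing, while the labels state none. The differences, errors and p-values given are nevertheless from the fit without the replicate block, unless the block is named. The replicate block, each array left out, other normalisations, filters, variance settings, array weights, RNA integrity and other uses of probe sets were the alternatives.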

Additional observations from a re-analysis of the deposited data

How the results depend on the processing

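Among the 8 measured genes, the count of 2 higher and 0 lower was the same under all 16 alternatives, the replicate block and each array left out among them, and the calls of Ago2, Ago3 and Diras2 held in each (Diras2 from -3.88 to -3.33). Ago4 could not be fitted among genes with a mean level of at least 5. Dicer1, not called in any, turned to -0.024, and Piwil1 to -0.062, when RNA integrity was a covariate. Without single arrays Dicer1 ran from -0.088 (without knockdown replicate 3) to 0.142 and Piwil1 from -0.077 (without control replicate 3) to 0.198.

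Among pathway list genes, 8 rose and 1 fell with the replicate block, 10 and 2 among genes with a mean level of at least 5, 1 and 0 when RNA integrity was a covariate, and 1 fell with quantile normalisation. Leaving out single arrays gave 1 to 5 higher and 0 lower. Fewer genes are tested under the filter and fewer samples without an array; otherwise the cause was not tested. Among microRNA genes, whose alternatives were chosen after the data were seen, 2 rose and 7 fell with the replicate block, 2 fell with median centring, 1 fell when RNA integrity was a covariate and 0 rose under the filter. Without single arrays 0 to 1 rose and 1 to 5 fell. Over all genes the 924 higher and 807 lower became 383 and 306 without control replicate 2 and 1401 and 1302 with array weights. The block gave 1341 and 1252, and the RNA integrity covariate 402 and 356. Under the filter they were 1173 and 1004 of 11238 genes. Quantile normalisation gave 895 and 864, and median centring 946 and 685. With single arrays left out, 383 to 800 were higher and 306 to 687 lower.

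With the replicate block the pathway list genes Ddx5, Ran, Pan3 and Lypla1 (0.0284), the markers Syt1 (0.013), Dlx2 (0.0442), Csf1r (0.0339) and Lum (0.0442) and Kcnk9 (0.0209) passed the adjusted threshold. It changed no other call among the members, the list and marker genes, the 5 called microRNA genes, the neighbours and the correlated genes. Changes of 0.5 on the log2 scale were mostly missed in simulated data, but these held far fewer changed genes than were called here. That share does not carry over to the measured data. The lack of a call for Drosha, Ago1 or Ago4 still does not show that they were unchanged.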

Other observations

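Host transcripts of microRNAs and well-studied microRNA targets, both taken from lists, held 1 gene that passed. Of 9 measured host transcripts 0 passed by limma (1 higher and 0 lower at an unadjusted p under 0.05), with a median log2 difference of -0.01. Rian, an imprinted long RNA that carries many small RNAs, read 8.29, 8.35 and 8.31 in the knockdown arrays and 8.08, 8.04 and 8.10 in the controls, a difference of 0.24 without overlap (adjusted p 0.162), and Mir124-2hg, a host of the neuronal miR-124, had -0.32 (adjusted p 0.48). Of 12 measured targets 1 rose and 0 fell by limma (3 and 2 at an unadjusted p under 0.05), with a median of -0.05. The gene that rose was Itgb1, the beta subunit of many integrins and a target of miR-124, from 9.26 ± 0.24 to 9.86 ± 0.12 (SD, n = 3), a difference of 0.61 (adjusted p 0.0366). Its call was lost in 7 of 11 alternatives, among them each array left out but control replicate 3 (0.0536 to 0.144).

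The measured neighbours of Ago2 on the chromosome had differences in both directions. These genes were looked up by position after the values of Ago2 were seen, as the nearest measured protein-coding genes in the RefSeq order. Chrac1, a subunit of chromatin remodelling complexes and the nearest on one side, read 6.48, 6.36 and 6.20 in the knockdown and 6.09, 6.22 and 6.24 in the control, a difference of 0.16 (adjusted p 0.471 by limma). Next to it Trappc9, a subunit of a vesicle-tethering complex, fell from 7.96 ± 0.02 to 6.58 ± 0.17 (SD, n = 3), 2.59-fold (adjusted p 0.000741). On the other side Dennd3, an activator of a Rab GTPase, had -0.12 (adjusted p 0.754), and Slc45a4, a solute carrier, rose from 5.44 ± 0.17 to 6.54 ± 0.22, a difference of 1.10 (adjusted p 0.00364). The stretch from Kcnk9 to Ago2 is an imprinted domain known from mouse brain, and Peg13, its paternally expressed long RNA, and Kcnk9, a potassium channel, had differences of -0.27 (adjusted p 0.344) and -0.58 (adjusted p 0.417, and 0.0209 with the replicate block). Around the Ago3, Ago1 and Ago4 cluster, Tekt2, Adprhl2, Clspn and 5730409E04Rik had differences between -0.09 and 0.08, with adjusted p-values from 0.804 to 0.855.

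Over the 6 arrays and 11238 genes with a mean level of at least 5, the genes whose levels followed Ago2 most closely by Pearson correlation were Orc6, of the origin recognition complex, at 0.998, Trp53inp1, a p53 target, at 0.998, Tmco1, a calcium channel of the endoplasmic reticulum, at 0.997 and Slc4a10, a bicarbonate transporter, at 0.997. For Ago3 they were DQ267102, Ufm1, Mmut and Nedd4, between 0.994 and 0.997. Their differences ran from 0.14 for Nedd4 to 1.69 for Trp53inp1. With 3 arrays in each of 2 groups such values are a description, and any gene with tight, separate groups comes near 1.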
